A study of Chlamydomonas reinhardtii with 12 samples.

Results

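Rubisco, the enzyme that fixes CO2 in the Calvin-Benson cycle, was followed in the green alga Chlamydomonas reinhardtii through 5 nuclear genes. The genes were RBCS1 (Cre02.g120100) and RBCS2 (Cre02.g120150), which encode the Rubisco small subunit, RCA1 (Cre04.g229300), which encodes Rubisco activase, EPYC1 (Cre10.g436550), the linker protein of the pyrenoid, and CP12 (Cre08.g380250), a regulator of the cycle. They were chosen by identifier for their roles and are 5 of 17744 identifiers counted. The rule that picked them used no measured value, but earlier results of these data were already known. All 5 passed the filter on low counts in every comparison.

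Rubisco is built of large subunits made in the chloroplast and small subunits encoded in the nucleus, imported after translation. Rubisco activase uses ATP to remove sugar phosphates that block the active site. EPYC1 binds the small subunits and gathers Rubisco into the pyrenoid, the compartment of the algal chloroplast in which CO2 is concentrated. CP12 binds glyceraldehyde 3-phosphate dehydrogenase and phosphoribulokinase, enzymes of the same cycle, and holds them inactive in darkness.

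In the knockout (PDSKO) samples, Cas9 ribonucleoprotein had been aimed at phytoene desaturase (PDS), an early enzyme of carotenoid synthesis. Line E10 gave PDSKO 1 to 4, line A2 gave PDSKO 5 and line D2 gave PDSKO 6, each line being 1 transformant. These cells grew in TAP, an acetate medium, with no added arginine, and fluorescence-activated sorting was used to remove cells that carried plasmid without a knockout and revertants. The 6 WT samples were the parent, given as CC-3403 in the labels and grown in TAP with 10 µg/mL arginine and not described as sorted. Vegetative cells of both genotypes were kept in liquid culture in darkness at 25 °C for 4 weeks, so darkness was shared and no library was from light. Arginine, sorting and transformation went with genotype and cannot be told apart from it. By their titles the libraries formed 2 sets, E10 with WT 1 to 3 (first set) and A2 and D2 with WT 4 to 6 (second set). The labels call the 6 parental samples independent and leave unstated whether the E10 libraries had a culture each, so the p-values cover only the scatter among the samples at hand, part of which may be technical.

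Total counts were 6279 to 475103 in PDSKO and 1393032 to 35992976 in WT, with 1308 to 8526 and 11649 to 14851 identifiers detected. Levels are given in counts per 1000000 counts (CPM), and 1 count equalled 159 CPM in PDSKO 2 but 0.0278 CPM in WT 2. Transcript 3′ ends were counted, so levels were not divided by length and are compared between libraries, not between genes. The targeted gene, Cre12.g509650 (PDS1), was at 0 counts in A2 and D2, against 48.0 ± 26.7 CPM in WT 4 to 6 (SD, n = 3). Those 0 counts allow up to 5.87 CPM over both, but singly up to 6.31 CPM in A2 and 83.2 CPM in D2. The bound is thus below the WT level in A2 only, and the 0 in D2 shows no loss. In E10 it had 0, 319, 0 and 122 CPM in PDSKO 1 to 4, from 4 counts in all, against 113, 66.6 and 46.6 CPM in WT 1 to 3, so no loss of the transcript was detectable in E10 and the count does not check that label. A single identifier, Cre07.g323800, took 43.3% of the A2 counts and 4.38% of the D2 counts, against 2.15 to 5.33% in WT 4 to 6. In bulk RNA, fewer cells expressing a gene and less RNA per cell cannot be told apart.

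The E10 libraries resembled single WT libraries of their title set, which bears on every E10 value below. Over 563 identifiers with a WT mean of at least 200 CPM, the levels in PDSKO 1 ranked like those in WT 1, with a Spearman correlation of 0.927, against 0.538 and 0.525 with WT 2 and WT 3. PDSKO 3 ranked like WT 2 and WT 3 (0.915 and 0.917) and less like WT 1, and PDSKO 4 did the same (0.919 and 0.923). PDSKO 2, the shallowest library, was at 0.758 and 0.764 with WT 2 and WT 3. WT 1 and WT 2 correlated at 0.55 with each other, and WT 2 and WT 3 at 0.984. A2 correlated at 0.307 to 0.444 with WT 4 to 6, but at 0.183, 0.501 and 0.523 with WT 1, 2 and 3. It thus ranked more like WT 2 and WT 3 than like the WT libraries of its own title set. D2 was at 0.525 to 0.582 with WT 4 to 6 and at 0.472 to 0.525 with WT 1 to 3. The origin of these likenesses was not tested.

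**Figure D1:**
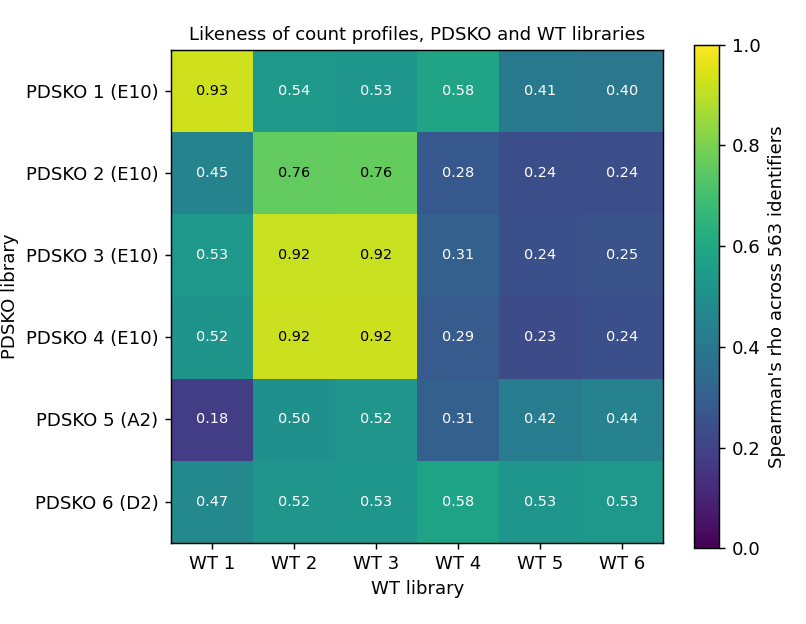
Spearman correlation (colour and number, no unit) across 563 identifiers between each PDSKO library (down) and each WT library (across). PDSKO 1 is closest to WT 1 at 0.927 and PDSKO 3 and 4 are closest to WT 2 and WT 3, at 0.915 to 0.923. A2 stays at or below 0.444 with WT 4 to 6 and is at 0.501 and 0.523 with WT 2 and WT 3.

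The comparison of A2 and D2 with WT 4 to 6 asks how these genes are expressed when PDS is knocked out in 2 lines other than E10. Transcripts of RBCS1 and CP12 were lower in both A2 and D2 than in WT 4 to 6, and those of RBCS2 mainly in A2. RCA1 and EPYC1 did not pass the test. Thus 3 of the 5 genes were called lower by edgeR and 0 higher, where 7.49% of the 8042 identifiers tested were called lower and 3.38% higher. That balance depends on scaling: 272 identifiers were called higher and 602 lower with TMM, 438 higher and 342 lower with RLE scaling, and 520 higher and 628 lower with DESeq2. The RBCS2 call was lost with RLE scaling, DESeq2 and library totals alone, while RBCS1 and CP12 kept theirs in those settings. The median log2 fold change was -2.53 over the 5 genes and -0.92 over all identifiers, the second of which moved to -0.42 under RLE scaling.

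RBCS1 had 286 CPM in A2 and 638 CPM in D2, against 3635, 4549 and 4143 CPM in WT 4, 5 and 6. Both knockout libraries lay far below all 3 of these WT libraries, and the groups did not overlap. This holds for the second title set. In the first set WT 2 and WT 3 had 439 and 474 CPM, between A2 and D2, and WT 1 had 3244 CPM. With Cre07.g323800 left out of the totals, A2 was at 505 CPM, against 451 and 487 CPM in WT 2 and WT 3. How many of all identifiers also lacked overlap was not counted, so here and below a lack of overlap is a description only. On the log2 scale RBCS1 fell by 3.79 ± 0.75 (SE), at an adjusted p of 0.00948 from edgeR, and 18.3% of the identifiers tested had a lower fold change. The WT mean was 14.4-fold the A2 level and 6.44-fold the D2 level. With Cre07.g323800 left out of the library total, the A2 figure was 8.49-fold. RBCS1 rested on 136 counts in A2 and 23 in D2.

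RBCS2 had 1162 CPM in A2 and 11563 CPM in D2, against 17673, 16007 and 21033 CPM in WT 4, 5 and 6. The groups did not overlap, but D2 lay much nearer to WT than A2 did. On the log2 scale it fell by 2.53 ± 0.65 (SE), at an adjusted p of 0.0265. The WT mean was 15.7-fold the A2 level (9.29-fold without Cre07.g323800) and 1.58-fold the D2 level. Without A2, RBCS2 was at -1.72 with an adjusted p of 0.091, and with library totals alone in place of TMM factors it was at -1.42 with 0.271. RLE scaling gave -1.88 with 0.0702, and DESeq2 gave -1.88 with 0.0799. TMM gave D2 a factor of 2.08, which lowers every D2 level in the test, against 0.772 for A2 and 0.745 to 1.01 for WT 4 to 6.

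RBCS2 ranked among the most counted identifiers of nearly all libraries, which gives its place a scale independent of the totals. It was 65th by count in A2 and 6th in D2, against 5th in each of WT 4, 5 and 6. In E10 it was 3rd, 17th, 2nd and 2nd in PDSKO 1 to 4, against 1st, 3rd and 2nd in WT 1 to 3. A2 was thus the library in which RBCS2 stood lowest in the order, followed by PDSKO 2, the shallowest library.

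CP12 had 684 CPM in A2 and 1303 CPM in D2, against 8377, 6066 and 6614 CPM in WT 4, 5 and 6. As with RBCS1, both lines were well below WT 4 to 6. Unlike RBCS1, CP12 in both lines was also below WT 1 to 3, which had 4599 to 5684 CPM. Its log2 fold change was -3.38 ± 0.68 (SE, edgeR adjusted p = 0.0095), and the WT mean was 10.3-fold the A2 level and 5.39-fold the D2 level. Without Cre07.g323800 the A2 figure was 6.06-fold.

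RCA1, the activase gene, had 192 CPM in A2 and 499 CPM in D2, against 319, 205 and 187 CPM in WT 4, 5 and 6. A2 lay within the WT range and D2 above it, so the groups overlapped. The log2 fold change was -0.10 ± 0.82 (SE, edgeR adjusted p = 0.946), and it was 0.47 with RLE scaling and 0.57 with library totals alone. D2 rested on 18 counts.

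EPYC1 had 303 CPM in A2 and 111 CPM in D2, against 467, 440 and 339 CPM in WT 4, 5 and 6. The groups did not overlap, yet D2 rested on 4 counts, whose Poisson 95% interval was 30.2 to 284 CPM. The log2 fold change was -1.04 ± 0.89 (SE, edgeR adjusted p = 0.424). Without Cre07.g323800 in the totals the WT mean was 0.809-fold the A2 level and 3.73-fold the D2 level, so the lines lay on opposite sides of the WT mean. Without A2, D2 alone against WT 4 to 6 was at -2.93 with an adjusted p of 0.0222, where the lone sample is assumed to vary like WT.

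The calls of RBCS1 and CP12 rest on all 3 WT libraries. Their edgeR adjusted p was 0.097, 0.122 and 0.0582 without WT 4, WT 5 and WT 6, for both genes alike, and RBCS2 was then at 0.145, 0.227 and 0.0752. At a filter of 50 CPM the adjusted p was 0.0528 for RBCS1, 0.296 for RBCS2 and 0.0534 for CP12. The number of all identifiers called, 874 with the 5 libraries, was 13, 71 and 127 without WT 4, WT 5 and WT 6, and 2486 without D2.

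**Figure D2:**
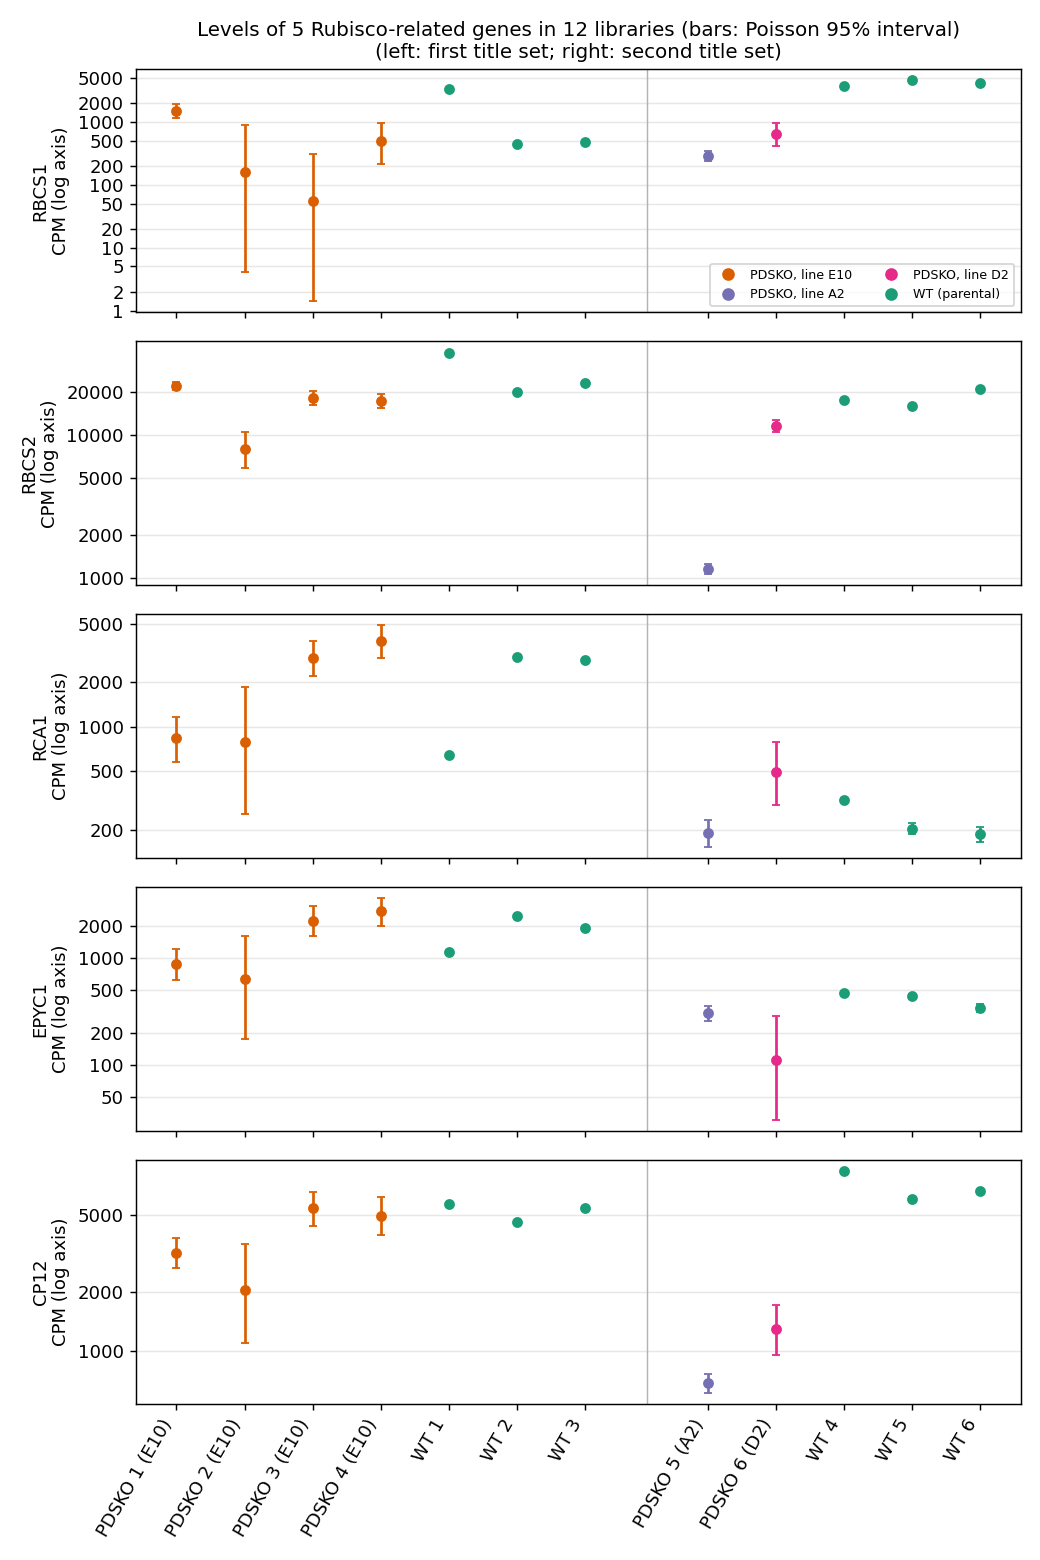
Level of each gene in CPM (log axis) in the 12 libraries, E10 with WT 1 to 3 on the left and A2 and D2 with WT 4 to 6 on the right, with Poisson 95% intervals from the counts as bars. RBCS1 and CP12 lie at 286 to 638 and 684 to 1303 CPM in A2 and D2, below the 3635 to 4549 and 6066 to 8377 CPM of WT 4 to 6, and RBCS2 is low mainly in A2. RBCS1 in WT 2 and WT 3, at 439 and 474 CPM, lies between A2 and D2.

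Genes that work with Rubisco or CP12 were taken as 3 lists from general knowledge, whose identifiers could not be checked against an annotation. In A2 and D2 against WT 4 to 6, 0 of 9 tested Rubisco assembly and mRNA factors were called by edgeR, with a median log2 fold change of -1.02. The 2 with the smallest p were Cre08.g358562, with 3 counts in A2 and 0 in D2 and 28.7 to 57.0 CPM in WT 4 to 6 (adjusted p = 0.0737), and Cre16.g673729, with 0 counts in A2 and 1 in D2 and 17.9 to 53.8 CPM in WT 4 to 6 (adjusted p = 0.0926). Of 5 pyrenoid Rubisco-binding proteins tested, 1 was called higher, with a list median of 0.12.

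That identifier, Cre11.g467712, had 107 CPM in A2 and 0 counts in D2, against 7.39, 6.71 and 0 CPM in WT 4, 5 and 6 (log2 fold change 3.86 ± 1.02, SE, edgeR adjusted p = 0.0279). The call rests on A2, and the adjusted p was 0.641 without it, 0.0752 without WT 6 and 0.0525 with library totals alone. Both CP12 partner enzymes had negative fold changes. Cre01.g010900 had 274 CPM in A2 and 666 CPM in D2, against 2417, 1559 and 1757 CPM in WT 4, 5 and 6 (-2.65 ± 0.77, SE, adjusted p = 0.038, but 0.108 to 0.281 without WT 4, 5 or 6, 0.08 with RLE scaling and 0.109 with library totals alone). Cre12.g554800 had 341 CPM in A2 and 277 CPM in D2, against 735 to 837 CPM in WT 4 to 6, with an adjusted p of 0.167.

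The 2 small-subunit genes are neighbours in the RefSeq gene table, with no identifier between them. Their share of each other's counts does not depend on library scaling. RBCS1 made up 19.8% of RBCS1 plus RBCS2 counts in A2 (Wilson 95% interval 17.0 to 22.9%) and 5.23% in D2 (3.51 to 7.72%), against 17.1, 22.1 and 16.5% in WT 4, 5 and 6. In E10 the shares were 6.28, 1.96, 0.302 and 2.74% in PDSKO 1 to 4, against 7.90, 2.14 and 2.00% in WT 1 to 3. A2 therefore lay within the WT 4 to 6 range of this share although both genes were far below WT 4 to 6, and D2 lay below that range. PDSKO 1 stood nearest to WT 1. The Wilson 95% intervals of PDSKO 2 (0.347 to 10.3%) and PDSKO 4 (1.39 to 5.31%) held the WT 2 and WT 3 shares, and that of PDSKO 3 (0.0534 to 1.69%, from 1 RBCS1 count) lay below both.

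Between genotypes the share averaged 6.05 ± 7.07% in PDSKO and 11.3 ± 8.47% in WT (SD, n = 6 each), a difference of -5.23 percentage points (exact two-sided permutation p = 0.286 over 924 arrangements, 0.163 over 350 within title sets). For A2 and D2 minus WT 4 to 6 it was -6.05 points (exact permutation p = 0.4, smallest possible 0.1). For E10 minus WT 1 to 3 it was -1.19 points (exact permutation p = 0.543, smallest possible 0.0286). Each difference was inside the spread of the libraries. Reads that mapped to several places were discarded, per the labels' protocols, so reads of near-identical stretches of the 2 genes may be missing and both levels are uncertain.

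**Figure D3:**
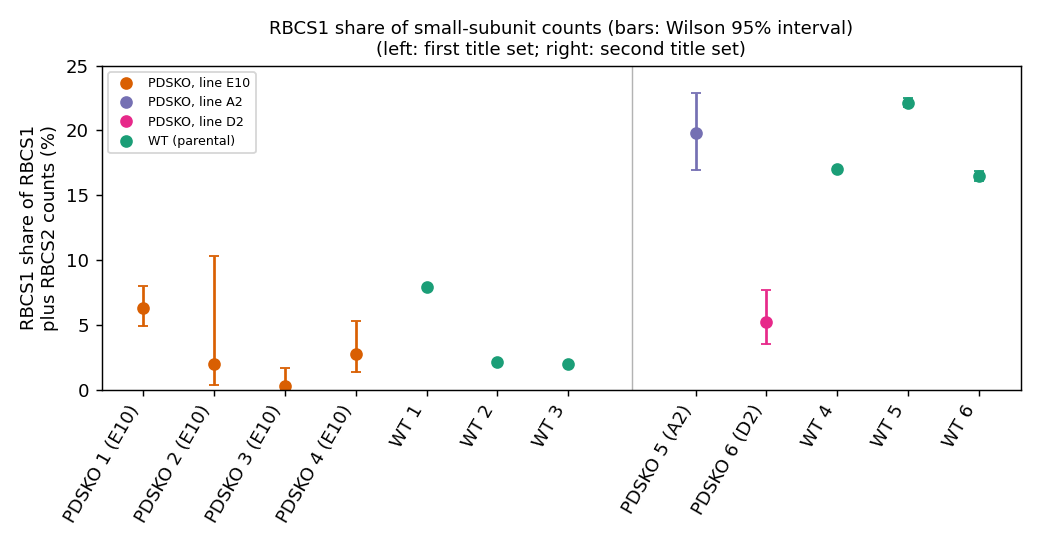
RBCS1 share of RBCS1 plus RBCS2 counts (percent) per library, with Wilson 95% intervals as bars. A2, at 19.8%, lies among WT 4 to 6 at 16.5 to 22.1%, while D2 lies at 5.23% and the first set at 0.302 to 7.90%.

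Line E10 against WT 1 to 3 addresses the same question in the line with 4 libraries. None of the 5 genes passed, where 0% of the 449 identifiers tested were called, 6 had an unadjusted p under 0.05 and DESeq2 called 1. All 5 had an edgeR adjusted p of 0.994. RBCS1, RBCS2 and CP12 were each lower in PDSKO 1, 2 and 3 than in the WT library of the same number, and so was the RBCS1 share. Beyond number 1, however, the data do not single out these pairs, and CP12 in PDSKO 3, at 5413 CPM, was above WT 2 at 4599 CPM. PDSKO 4, which had no partner, was above WT 2 and WT 3 in RBCS1 and below both in RBCS2. With the replicate number as a block, RBCS1 was at -1.39 ± 0.54, RBCS2 at -0.54 ± 0.23 and CP12 at -0.38 ± 0.29 (SE), each with an adjusted p of 0.842.

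RBCS1 had 1484, 159, 55.2 and 490 CPM in PDSKO 1 to 4, against 3244, 439 and 474 CPM in WT 1 to 3. PDSKO 2 and PDSKO 3 held 1 count each. PDSKO 1 was high like WT 1 and the others low like WT 2 and WT 3, and the log2 fold change was -1.11 ± 1.22 (SE). It was -3.85 without PDSKO 1 and 0.95 without WT 1, each of which breaks a numbered pair, and its direction turned without WT 1. The identifiers tested also changed, from 449 to 10459 without PDSKO 1 and to 383 without WT 1, so the 2 values come from unlike fits.

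RBCS2 had 22162, 7963, 18227 and 17392 CPM in PDSKO 1 to 4, against 37820, 20096 and 23191 CPM in WT 1 to 3. PDSKO 2 to 4 were below all 3 WT libraries and PDSKO 1 was between WT 2 and WT 3. The log2 fold change was -0.60 ± 0.47 (SE). With 1 library left out it ran from -2.09 without PDSKO 1, with 10459 identifiers tested in place of 449, to -0.0096 without WT 1.

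CP12 had 3191, 2070, 5413 and 4961 CPM in PDSKO 1 to 4, against 5684, 4599 and 5459 CPM in WT 1 to 3. PDSKO 1 and PDSKO 2 were below every WT library and the other 2 within the WT range, with a log2 fold change of -0.33 ± 0.36 (SE). With 1 library left out it ran from -1.75 without PDSKO 3 to -0.059 without WT 1, the first with 10498 identifiers tested in place of 449.

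RCA1 had 841, 796, 2927 and 3797 CPM in PDSKO 1 to 4, against 643, 2956 and 2815 CPM in WT 1 to 3. EPYC1 had 890, 637, 2265 and 2756 CPM in PDSKO 1 to 4, against 1137, 2506 and 1926 CPM in WT 1 to 3. In both genes PDSKO 3 and 4 had levels like those of WT 2 and WT 3, while PDSKO 1 was nearer WT 1. The log2 fold changes were 0.14 ± 0.61 for RCA1 and -0.04 ± 0.48 for EPYC1 (SE). Summed over the 4 E10 libraries, the Poisson 95% intervals were 1610 to 2222 CPM for RCA1 and 1294 to 1849 CPM for EPYC1, which covers counting error only.

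Of the lists, 0 of the 9 assembly factors and 0 of the 5 pyrenoid proteins passed the filter in E10. Both CP12 partner enzymes did, with a median log2 fold change of 0.15 and 0 called.

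Across all 12 libraries, 0 of the 5 genes and 0% of the 4915 identifiers tested were called by edgeR, though 1006 identifiers had an unadjusted p under 0.05 and DESeq2 called 358. The levels of the 5 genes in PDSKO and WT overlapped. RBCS1 ran from 55.2 through a median of 388 to 1484 CPM in PDSKO, against 439 through 3439 to 4549 CPM in WT, with a log2 fold change of -2.72 ± 0.82 (SE, adjusted p = 0.09). CP12 was at -1.81 ± 0.54 (adjusted p = 0.0882) and RBCS2 at -1.41 ± 0.53 (0.142). EPYC1 was at -0.65 ± 0.67 (0.592) and RCA1 at -0.37 ± 0.73 (0.8), beside a median of -0.38 over all identifiers. With RLE scaling that median was 0.29, EPYC1 was at 0.12 and RCA1 at 0.50. Without PDSKO 1, RBCS1 (-3.74), RBCS2 (-2.17) and CP12 (-2.33) were each called lower at an edgeR adjusted p of 0.04. In that fit 632 of 6777 identifiers tested were called, 564 lower and 68 higher, so calls leaned lower among all identifiers too. Without the 4 E10 libraries, A2 and D2 against all 6 WT libraries gave -3.37 for RBCS1 (adjusted p = 0.12), -2.79 for RBCS2 (0.0744), -3.28 for CP12 (0.0506), -2.30 for RCA1 (0.239) and -2.54 for EPYC1 (0.143). With title set as a factor, 0 of the 5 genes were called, and the smallest adjusted p was 0.107, for CP12 at -1.74.

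Among partners, 0 of 8 assembly factors, 0 of 3 pyrenoid proteins and 0 of 2 CP12 partner enzymes tested were called, with medians of 0.32, -0.69 and -0.98.

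The 5 genes together took 2.86, 1.16, 2.89 and 2.94% of counts in PDSKO 1 to 4 and 0.263 and 1.41% in A2 and D2, against 4.85, 3.06 and 3.39% in WT 1 to 3 and 3.05, 2.73 and 3.23% in WT 4 to 6. RBCS2 was the largest part in every library, at 44.2% of the counts of the 5 genes in A2 and 81.9% in D2, against 58.0 to 65.1% in WT 4 to 6. RCA1 plus EPYC1 made up 18.8% in A2 and 4.32% in D2, against 1.63 to 2.58% in WT 4 to 6. In the first title set they made up 3.67, 17.9 and 14.0% in WT 1 to 3 and 6.06 to 22.3% in PDSKO 1 to 4. The A2 value was thus near that of WT 2. Without Cre07.g323800 the A2 share of all counts was 0.463%.

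**Figure D4:**
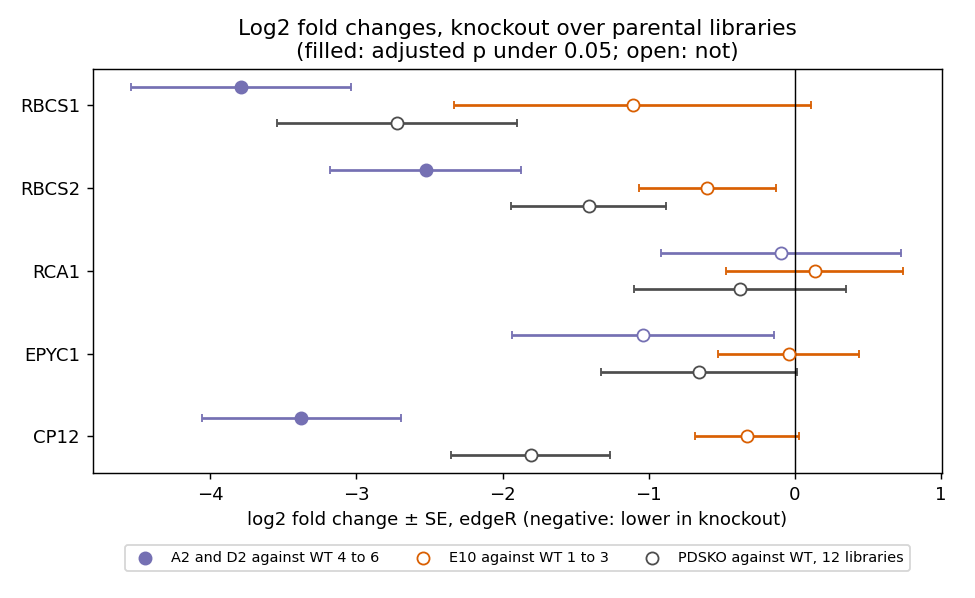
Log2 fold change of each gene from edgeR in the comparisons named on the axis, with bars of 1 SE. RBCS1, RBCS2 and CP12 lie at -3.79, -2.53 and -3.38 in A2 and D2 against WT 4 to 6, and all 5 genes lie between -1.11 and 0.14 in E10 against WT 1 to 3.

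The fold changes in A2 and D2 and those in E10 were compared by their difference, (A2 and D2 minus WT 4 to 6) minus (E10 minus WT 1 to 3), in 1 fit of all 12 libraries. Its TMM factors (1.17 for D2, 1.27 to 3.07 for E10) and filter differ from those of the separate fits, so its values are not the differences of the fold changes given above. The median over all identifiers was 0.59 in this fit. None of the 5 genes passed, where 0.0111% of the 9044 identifiers tested were called. The difference was -1.25 ± 1.48 for RBCS1, -0.31 ± 0.99 for RBCS2 and -1.53 ± 0.95 for CP12 (SE), with edgeR adjusted p of 0.711, 0.99 and 0.415. It was 1.33 ± 1.13 for RCA1 and 0.41 ± 1.13 for EPYC1, with 0.565 and 0.97. In the separate fits the fold changes of RCA1 and EPYC1 were lower in A2 and D2 than in E10, so the direction for these 2 genes depends on the fit, and with library totals alone EPYC1 was at -0.74. So the calls in A2 and D2 were not shown to differ from the E10 effects. No list identifier was called here.

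The parental libraries themselves differed by title set, and here the activase and linker genes were the ones called. RCA1 and EPYC1 were higher in WT 1 to 3 than in WT 4 to 6. Of the 5 genes, 2 were called higher and 0 lower by edgeR, where 1.82% of 13040 identifiers were called higher and 9.31% lower. With library totals alone 400 identifiers were called higher and 1045 lower. At a filter of 50 CPM, which leaves 1930 abundant identifiers, 210 were called higher and 188 lower, against 237 and 1214 of all tested. WT 1 to 3 bear a strain number in their titles that differs from CC-3403, and the labels do not say why.

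RCA1 had 643, 2956 and 2815 CPM in WT 1 to 3, against 319, 205 and 187 CPM in WT 4 to 6. EPYC1 had 1137, 2506 and 1926 CPM in WT 1 to 3, against 467, 440 and 339 CPM in WT 4 to 6. The sets did not overlap in either gene, with WT 1 the lowest of its set. Again the share of all identifiers without overlap was not counted. In this comparison the log2 fold change was 2.72 ± 0.56 for RCA1 (SE, edgeR adjusted p = 0.00922) and 1.73 ± 0.42 for EPYC1 (0.024). Without WT 5 or WT 6 the adjusted p was 0.0836 or 0.0634 for RCA1 and 0.123 or 0.116 for EPYC1, and EPYC1 was at 0.0856 without WT 2 and 0.0546 without WT 3.

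RBCS1 had 3244, 439 and 474 CPM in WT 1 to 3, against 3635, 4549 and 4143 CPM in WT 4 to 6. The sets did not overlap, though WT 1 was close to WT 4, and the log2 fold change of -1.83 ± 0.84 (SE) did not pass (edgeR adjusted p = 0.209). Without WT 1 it was -3.72, at an adjusted p of 2.43e-05. CP12 was at -0.79 ± 0.45 (0.299, and called at -0.99 with 0.0381 without WT 1), without overlap, and RBCS2 at 0.20 ± 0.55 (0.854), with overlap. For the RBCS1 share, WT 1 to 3 minus WT 4 to 6 was -14.5 percentage points (exact two-sided permutation p = 0.1, the smallest that 3 against 3 allows).

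**Figure D5:**
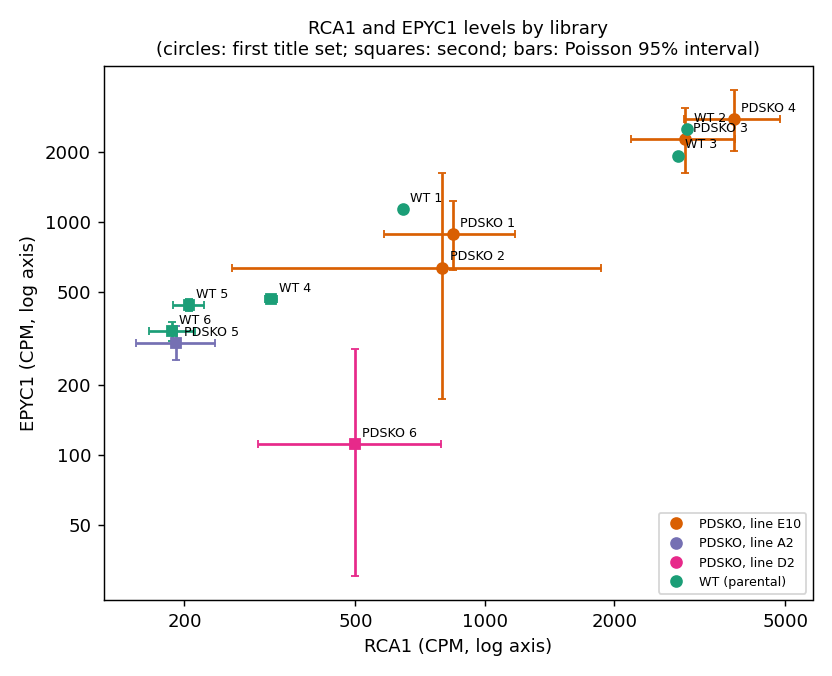
RCA1 level (horizontal) against EPYC1 level (vertical) in CPM on log axes, circles for the first title set, squares for the second, with Poisson 95% intervals as bars. WT 2 and WT 3 lie at 2815 to 2956 CPM RCA1 with PDSKO 3 and PDSKO 4, while WT 4 to 6 lie at 187 to 319 CPM with A2.

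Of the lists, 1 of 9 assembly factors (Cre04.g231222) and 1 of 5 pyrenoid proteins (Cre09.g394621) were called lower in WT 1 to 3, with list medians of 0.61 and 0.88, and 0 of 2 CP12 partner enzymes. Cre04.g231222 and Cre09.g394621 had 1 count each over WT 1 to 3. They belong to 391 identifiers that had at most 3 counts over WT 1 to 3 and more than 5 CPM in each of WT 4 to 6, against 3 identifiers the other way round. None of the 5 genes was among them.

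Over the 6 WT libraries, the log2 CPM of each gene was compared with that of 1929 identifiers averaging at least 50 CPM in WT, as Pearson correlations that largely follow the title sets and WT 1. Most like RBCS1 were Cre02.g082750 (0.999), Cre13.g602650 (0.999) and Cre03.g208050 (0.999). Most like RBCS2 were Cre02.g143050 (0.973), Cre09.g402500 (0.94) and Cre15.g643550 (0.94). RBCS1 and RBCS2, though neighbours, correlated at only 0.479.

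Most like RCA1 were Cre03.g159800 (0.998), Cre07.g335200 (0.997) and Cre06.g307150 (0.995), and most like EPYC1 were Cre07.g346600 (0.993), Cre03.g174850 (0.992) and Cre07.g336450 (0.991). Most like CP12 were Cre12.g503550 (0.983), Cre03.g176150 (0.98) and Cre07.g347150 (0.977). RCA1 and EPYC1 correlated at 0.961 with each other, and CP12 ran opposite to both, at -0.97 with RCA1 and -0.98 with EPYC1. CP12 and RBCS1 correlated at 0.932. By rank among the 1929 identifiers, EPYC1 was 48th for RCA1 and CP12 was 214th for RBCS1, so other identifiers were more alike in each case. These identifiers have no gene name in the files or the RefSeq table.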

How the data were processed

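Total RNA of 12 samples was made into CEL-Seq libraries, in which barcoded transcript 3′ ends are pooled and amplified by in vitro transcription, per the labels' protocols. Per those protocols, the authors mapped read 2 with BWA MEM against transcriptome 281_v5.6, dropped reads that fitted several locations, and obtained counts with MapAndGo. edgeR is also named, without a version, per the submitters' processing notes. Collapsing of molecular identifiers is not described in the labels. As deposited, the values are raw counts for 17744 identifiers in 12 columns, each matched to a sample by title, and 0 columns were left unmapped. PCR copies, if kept, are not independent molecules, so intervals and floors (3 counts) cover counting error only.

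The file holds no gene names. Symbols of the 5 genes come from the rule that chose them, the 3 lists of 16 identifiers were written from general knowledge, and neither pairing could be checked, since the RefSeq table of another assembly, which matched 17742 identifiers, gives no symbols. Genes, lists and tests were chosen with earlier results of these data known. The named identifiers are the 5 genes, list identifiers past the threshold or, where a list has none, at most 2 with the smallest p, and the 3 most like each gene; both CP12 partner enzymes are also given, chosen after their values were seen.

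Counts were tested with edgeR 4.0.16 (filterByExpr, TMM, quasi-likelihood F test) in R 4.3.3, two-sided, with Benjamini-Hochberg adjustment over all identifiers tested at 0.05, in the 5 comparisons described. SE is the log2 fold change over the root of F. Alternatives used DESeq2 1.42.0, limma-voom (limma 3.58.1), other scalings and filters, a title-set factor, a replicate block, summed E10 libraries and each library left out. Tests were also run on simulated data with 200 changed genes, drawn with the same spread for every gene and no structure beyond the compared groups. That run cannot show how the tests perform on libraries as unlike as these. Python 3.11.15 with scipy 1.17.1 gave shares, intervals and exact permutation tests. A permutation test had been planned for the summed share of the 5 genes and is not given, as that share is a score over chosen genes.

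Same-numbered libraries of E10 and WT 1 to 3 deviated together (correlations 0.716, 0.232 and 0.218), and were taken as pairs under a rule that every such correlation exceed 0.1. Beyond number 1 the data do not single out the pairs: PDSKO 2 correlated at 0.256 with WT 3, and PDSKO 3 at 0.233 and PDSKO 4 at 0.258 with WT 2. The blocked fit called 0 identifiers, as did the fit without it. The other comparisons did not meet the rule.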

Additional observations from a re-analysis of the deposited data

Results flagged for a closer look

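Among 21 groups tested for a library far from the others, 4 had one, and chance marks about 1 in 20 groups. The RBCS1 share of small-subunit counts was 19.8% in A2, far above the next PDSKO library at 6.28%, although A2 lay among the WT libraries of its own title set. The RBCS2 level of WT 1, at 37820 CPM, stood above the other WT libraries, the next of which had 23191 CPM. WT 1 also had the highest summed share of the 5 genes in WT, 4.85% of counts against 3.39% in the next. In E10 the summed share was 1.16% in PDSKO 2, which held 73 counts of the 5 genes, against 2.86 to 2.94% in the other 3 libraries.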

How the results depend on the processing

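Depth limits all PDSKO values, most in E10, where 449 identifiers passed the filter. In PDSKO against WT, the 0 identifiers called became 164 with RLE scaling, 4 with library totals alone, 1257 without a filter, 64 at 50 CPM, 358 with DESeq2, 69 with a replicate block, 1 with E10 summed and 13 without E10, and 0 to 632 with 1 library left out. The 0 of the 5 genes called became 3 without a filter, 1 with DESeq2 and 3 with the replicate block (RBCS1, RBCS2 and CP12 lower, adjusted p 0.00213, 0.0369 and 0.0466), and 0 to 3 with a library left out. Here RCA1 turned to 0.50 with RLE and DESeq2, 0.36 with totals alone, 0.12 at 50 CPM and 0.18 with the block (-0.99 to 0.42 with a library left out), and EPYC1 to 0.12, 0.020 and 0.13 with RLE, totals alone and DESeq2.

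In A2 and D2, the 874 identifiers became 780 with RLE scaling, 512 with totals alone, 1470 without a filter, 0 at 50 CPM, 459 with limma-voom and 18 with the replicate block, and 13 to 2486 with a library left out (13 without WT 4, 2486 without D2). Of the 5 genes 3 were called, 0 at 50 CPM, 1 with the block (RBCS2), and 0 to 3 with a library left out, with 0 in each case of WT 4, 5 or 6. RCA1 turned to 0.47, 0.57, 0.83, 0.46, 0.17 and 0.037 with RLE, totals alone, 50 CPM, DESeq2, no Cre07.g323800 and the block (-0.31 to 0.66 with a library left out). Cre11.g467712 ran from -7.39 to 4.38, the first a fitted value with D2 at 0 counts and no bound.

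In E10, the 0 identifiers became 1 with DESeq2, and 0 to 1 with a library left out. Without any 1 PDSKO library, 10459 to 10545 identifiers were tested in place of 449, and the lowest left-out values in E10 come from such fits. RCA1 turned to -1.32 without a filter, -0.28 at 50 CPM and -0.069 with the replicate block, and with a library left out RBCS1 ran from -3.85 to 0.95, RCA1 from -1.67 to 0.30 and EPYC1 from -1.70 to 0.081. Between parental sets, 1451 identifiers became 398 at 50 CPM, 2235 with DESeq2 and, in an alternative chosen after seeing the data, 908 without identifiers counted in 1 set, and 1119 to 3288 with a library left out (3288 without WT 1). The 2 genes called became 0 to 4, and RBCS2 ran from -0.30 to 0.51.

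For the difference of the line effects, 1 identifier became 0 with RLE, 42 without a filter, 0 at 50 CPM, 665 with DESeq2, 787 with limma-voom and 0 without identifiers counted in 1 set, and 0 to 243 with a library left out. DESeq2 called 1 gene, CP12. EPYC1 turned to -0.74 with totals alone, and with a library left out RBCS1 ran from -3.22 to 0.49, RBCS2 from -2.11 to 0.20 and EPYC1 from -1.51 to 0.95. The replicate numbers of the other comparisons did not pair their samples (correlations 0.0394 and -0.0563 in A2 and D2, and 0.382, 0.102, 0.189, -0.0927, 0.173 and 0.107 for numbers 1 to 6 in PDSKO against WT, where not every library correlated best with its own number). The cause of these changes was not tested. The summed share moved by less than the spread between libraries in every alternative run. The RBCS1 share was judged by its exact permutation p instead, which was 0.286 over all arrangements and 0.163 within title sets. An alternative for it was a log2 ratio, in other units.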
